A study of Mus musculus with 9 samples.

Results

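The 10 genes described here are the Notch receptors Notch1, Notch2, Notch3 and Notch4, the Notch ligands Jag1, Jag2, Dll1 and Dll4, and the target genes Hes1 and Hey1. The rule that selects their rows uses names and no measured value: each is a row of the expression table that carries the member's symbol and no other gene. Each of the 10 members had 1 such row, out of 21789 rows for 19938 genes that name a single gene. Notch1 was read from transcript cluster 10481056, Notch2 from 10494595, Notch3 from 10449775, Notch4 from 10444352, Jag1 from 10488060, Jag2 from 10402808, Dll1 from 10448034, Dll4 from 10474958, Hes1 from 10434925 and Hey1 from 10497203, where a transcript cluster is the set of probes the array design assigns to 1 gene.

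Notch receptors are single-pass membrane proteins that are activated by Jagged and Delta-like ligands on a neighbouring cell. Ligand binding allows cleavage by an ADAM protease and then by gamma-secretase, and the freed intracellular domain enters the nucleus, binds RBPJ and switches on repressor genes of the Hes and Hey families. In bone marrow, stromal and endothelial cells present Notch ligands to blood-forming cells, Notch signalling is required for T cell fate, and NOTCH3 is widely used as a receptor of vascular mural cells.

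RNA from mouse bone marrow was hybridised to 9 Affymetrix Mouse Gene ST 1.0 arrays. YFP-positive cells (3 arrays) were sorted as CD45-Lin-CD54+BP1+ YFP+ from C57Bl/6J mice with the IL7-Cre transgene and 1 copy of the Rosa-eYFP reporter, so the label marks cells in which Cre under Il7 control is or has been active. YFP-negative cells (1 array, 2300 cells) came from mice of the same genotype through the same gate without YFP. Wild type cells (3 arrays) passed the gate for CD45-Lin-CD54+BP1+ in C57Bl/6J mice that carry neither transgene, so no YFP criterion applies to this group. The sorted cells came from mice aged 6 to 12 weeks, with 1800 to 10000 cells for the YFP-positive and wild type arrays. Total marrow (2 arrays, 10 ng RNA) was unsorted marrow of young adult wild type C57Bl/6 mice. CD54 is the protein of Icam1, BP1 is the peptidase encoded by Enpep, and Lin stands for markers of mature blood cells. The labels do not say whether replicates came from separate mice, so every p-value measures only the spread between these arrays, which may be technical.

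The values are log2 signals. The YFP-negative array was deposited on a lower scale than the other 8 (array median 3.46 against 4.51 to 4.60), so its values are compared only after a cyclic loess normalization of all 9 arrays. The sorted arrays had the profile of reticular stroma: all 8 markers of that list, among them Lepr, Cxcl12 and Kitl, were above 4.43, the median of all deposited values, on each of the 6 YFP-positive and wild type arrays, with list means of 10.7 to 10.9 against at most 4.12 in total marrow. The 4 measured osteoblast lineage markers, Sp7, Ibsp, Alpl and Phex, moved the same way: all 4 were above that median on these 6 arrays, with means of 8.69 to 9.27 against 4.02 to 4.23 in total marrow. Icam1, Enpep and Il7 were also at higher values there (Il7 6.41 to 7.97, total marrow 3.19 and 3.40), while Ptprc, which encodes CD45, was at 3.60 to 3.80 against 9.69 and 9.75. The 8 neutrophil markers varied between sorted arrays: their mean was 7.14, 6.28 and 4.37 on YFP-positive arrays 1, 2 and 3, 5.27, 4.27 and 4.10 on wild type arrays 1, 2 and 3, and 11.7 on both marrow arrays. The erythroid list mean varied too, at 3.78, 3.83 and 4.45, then 3.83, 3.89 and 4.775, with 7.80 and 7.45 in marrow. Single markers of other blood cells reached up to 7.88 (Car1), 8.34 (Lyz2) and 6.22 (Vpreb1) on these 6 arrays.

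Promoter sequence was available for 8 of the 10 members, all but the target genes Hes1 and Hey1, in RefSeq entries on build GRCm38.p6. The windows of Notch3 and Jag1 are shown because these were the receptor and the ligand with the largest differences between sorted stroma and marrow, and that of Dll4 because Dll4 moved the other way. Each reads 5′ to 3′ on the gene's strand and ends at the base before the transcript start. Notch3 lies at chr17:32166897-32167140 on the minus strand (244 bases, leaving out those inside a longer Notch3 transcript), Jag1 at chr2:137116521-137116770 on the minus strand (250 bases) and Dll4 at chr2:119325534-119325783 on the plus strand (250 bases). Capitals mark, on either strand, CACNAG (the N-box that Hes proteins bind), GGGCGG (the Sp1 GC box), TGGGAA (the core letters of an RBPJ site) and CACGTG (an E-box). None of the 4 motifs contains another.
Notch3: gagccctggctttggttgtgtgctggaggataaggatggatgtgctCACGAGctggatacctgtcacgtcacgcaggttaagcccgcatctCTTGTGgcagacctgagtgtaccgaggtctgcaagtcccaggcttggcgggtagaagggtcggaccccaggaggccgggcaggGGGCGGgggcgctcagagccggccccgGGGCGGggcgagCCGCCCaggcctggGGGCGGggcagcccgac
Jag1: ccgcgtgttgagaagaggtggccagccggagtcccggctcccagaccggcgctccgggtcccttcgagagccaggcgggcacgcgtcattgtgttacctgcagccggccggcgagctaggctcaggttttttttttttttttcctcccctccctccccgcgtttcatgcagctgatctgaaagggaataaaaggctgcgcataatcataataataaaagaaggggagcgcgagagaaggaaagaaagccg
Dll4: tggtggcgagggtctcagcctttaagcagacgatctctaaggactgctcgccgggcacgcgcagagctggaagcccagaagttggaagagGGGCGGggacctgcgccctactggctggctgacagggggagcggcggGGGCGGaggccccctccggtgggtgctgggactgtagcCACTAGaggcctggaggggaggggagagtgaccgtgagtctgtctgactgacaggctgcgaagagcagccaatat

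The Notch3 window held 2 matches to CACNAG and 4 to GGGCGG, the Dll4 window 1 and 2, and the Jag1 window none of the 4 motifs. TGGGAA and CACGTG were found in none of the 9 windows of the 8 members, which do not include the target genes Hes1 and Hey1. Over all 32851 promoter windows of 250 bases in the table, 21.6% held TGGGAA, 6.02% CACGTG, 36.7% CACNAG and 32.7% GGGCGG. The full windows had 17 CpG dinucleotides at Notch3, 20 at Jag1 and 14 at Dll4, beside quartiles of 2, 6 and 16 over all windows. A match is a string of letters and not a shown binding site.

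Sorted stroma had more Notch3, Jag1, Hes1 and Hey1 signal than total marrow, both in the reporter-positive cells and in the wild type cells. Of the 10 members, 5 rose and 1 fell in YFP-positive cells at an adjusted p under 0.05 (limma, Benjamini-Hochberg over all 21789 rows, two-sided), where 11.0% of all rows were higher and 18.5% lower. In wild type cells 4 were higher and 1 lower, where 10.4% of all rows were higher and 13.9% lower. The arrays of the groups did not overlap for 9 of 10 members in YFP-positive cells against marrow (59.8% of all rows) and for 7 of 10 in wild type cells against marrow (53.6%). The median change was 0.66 on the log2 scale over the members and 0.09 over all rows for YFP-positive cells, and 0.18 and 0.00 for wild type cells. Both comparisons use the same 2 marrow arrays, so they are not independent. In these bulk samples, fewer cells of a type and less RNA per cell cannot be told apart.

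**Figure D1:**
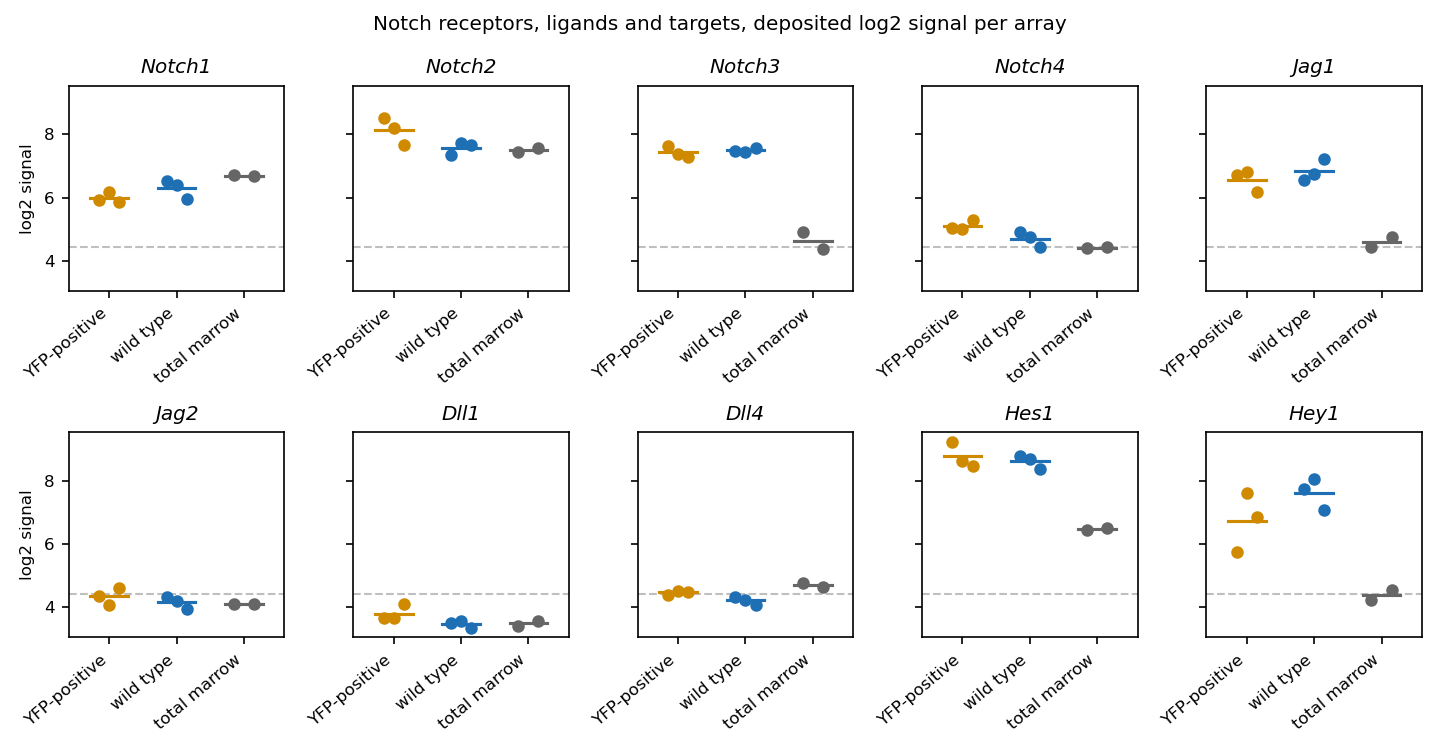
Deposited log2 signal of the 10 members on each YFP-positive, wild type and total marrow array, 1 panel per gene; points are arrays, short horizontal bars are group means and the dashed line is the median of all deposited values, 4.43. Notch3, Jag1, Hes1 and Hey1 sit above both marrow arrays on all 6 sorted arrays, and Jag2 and Dll1 lie at or near the dashed line or below it on every array.

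Among the receptors, Notch3 differed most between stroma and marrow. Notch3 was at 7.62, 7.38 and 7.27 on the YFP-positive arrays, 7.48, 7.44 and 7.58 on the wild type arrays, and 4.90 and 4.38 on the marrow arrays. All 6 sorted arrays were within a narrow band, and both marrow arrays were below them by more than 2 log2 units. Notch3 was 6.89-fold higher in YFP-positive cells (log2 change 2.78 ± 0.18 SE, adjusted p = 1.71e-05) and 7.26-fold higher in wild type cells (2.86 ± 0.18, adjusted p = 1.37e-05) than in marrow, and passed under all 16 alternatives of each comparison. Of 10 smooth muscle and pericyte markers, 4 to 6 were above the median of all values on the sorted arrays and 3 on the marrow arrays, and the list mean was 4.47 to 4.88 in YFP-positive cells, 4.67 to 4.85 in wild type cells and 4.22 to 4.23 in marrow. Within that list Abcc9, Acta2 and Mcam were above the median on all 6 sorted arrays, while Myh11, Cnn1 and Cspg4, which mark contractile muscle and pericytes, were below it on all 6. The part of such cells in the Notch3 difference was not tested.

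Notch1, the receptor required for T cell commitment, went the other way. Its log2 signal was 5.93, 6.17 and 5.87 on the YFP-positive arrays, 6.53, 6.38 and 5.97 on the wild type arrays, and 6.71 and 6.67 in marrow. Every sorted array was below both marrow arrays. Notch1 was 1.63-fold lower in YFP-positive cells than in marrow (log2 change -0.70 ± 0.18, adjusted p = 0.0241), and the wild type difference of -0.40 did not pass (adjusted p = 0.181). The YFP-positive call was lost under cyclic loess (-0.49, adjusted p = 0.0813) and quantile normalization (-0.41, adjusted p = 0.157). It was also lost without either marrow array (adjusted p = 0.133 without marrow array 1 and 0.104 without marrow array 2), without YFP-positive array 1 (0.0527), without YFP-positive array 3 (0.0554) and with a trended, robust prior (0.0538). The 5 measured T and NK cell markers were all lower in both sorted groups than in marrow, with list means of 3.54 to 3.86 on the sorted arrays against 7.31 and 7.49, and their part in the Notch1 difference was not tested.

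Notch2, the receptor that marginal zone B cells depend on, was highest on 2 of the 3 YFP-positive arrays. The values were 8.52, 8.20 and 7.67 in YFP-positive cells, 7.34, 7.73 and 7.66 in wild type cells, and 7.43 and 7.58 in marrow. As deposited, YFP-positive array 3 lay among the wild type arrays. After cyclic loess it was at 7.78, above the wild type arrays at 7.09, 7.33 and 7.39. The difference from marrow was 0.62 ± 0.25 in YFP-positive cells (adjusted p = 0.101) and 0.07 in wild type cells (adjusted p = 0.906), and neither passed as deposited. The YFP-positive difference passed under cyclic loess (1.02, adjusted p = 0.00575), under quantile normalization (1.04, adjusted p = 0.00620), with array weights (adjusted p = 0.0236) and without YFP-positive array 3 (adjusted p = 0.0137). Across the YFP-positive arrays Notch2 followed the order of the neutrophil marker means given above. The wild type arrays did not: array 1 had their highest neutrophil mean, 5.27, and their lowest Notch2, 7.34. Marrow, with a neutrophil mean of 11.7, had Notch2 at 7.43 and 7.58. The part of neutrophil RNA in the Notch2 values was not tested.

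Notch4, a receptor best known in endothelium, was close to the median of all values everywhere. Its values were 5.04, 4.99 and 5.28 on the YFP-positive arrays, 4.90, 4.75 and 4.43 on the wild type arrays, and 4.40 and 4.43 in marrow. The YFP-positive arrays were all above the wild type arrays, which were in turn at or just above the marrow arrays. Notch4 was 1.62-fold higher in YFP-positive cells than in marrow (0.69 ± 0.17, adjusted p = 0.0165), and the wild type difference of 0.28 did not pass (adjusted p = 0.317). Without marrow array 1 the YFP-positive adjusted p was 0.104, and without marrow array 2 it was 0.0812. Of 12 endothelial markers, 1 to 2 were above the median on the YFP-positive arrays, 1 on the wild type arrays and 3 on the marrow arrays, and their mean was 3.75 to 3.86 in YFP-positive cells, 3.61 to 3.73 in wild type cells and 4.07 to 4.10 in marrow. Of these, 10 markers, among them Pecam1, Cdh5, Kdr, Tek and Tie1, were below the median on all 6 YFP-positive and wild type arrays. Of the other 2, Vwf was above it on all 6 (4.58 to 5.01). The part of endothelial RNA in the Notch4 values was not tested.

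Jag1 was the ligand with the largest difference. Its log2 signal was 6.71, 6.81 and 6.17 on the YFP-positive arrays, 6.57, 6.75 and 7.22 on the wild type arrays, and 4.44 and 4.76 in marrow. The sorted groups overlapped each other and lay more than 1 log2 unit above both marrow arrays. Jag1 was 3.91-fold higher in YFP-positive cells (1.97 ± 0.26, adjusted p = 0.000917) and 4.75-fold higher in wild type cells (2.25 ± 0.26, adjusted p = 0.000440) than in marrow, and passed under all 16 alternatives of each comparison.

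Dll4, the ligand that drives T cell fate in the thymus and vessel sprouting in endothelium, was lower in wild type stroma than in marrow. It was at 4.40, 4.52 and 4.49 on the YFP-positive arrays, 4.34, 4.23 and 4.09 on the wild type arrays, and 4.77 and 4.63 in marrow. The 3 groups did not overlap, with marrow highest and wild type lowest. Dll4 was 1.40-fold lower in wild type cells than in marrow (-0.48 ± 0.12, adjusted p = 0.0238), and the YFP-positive difference of -0.23 ± 0.12 did not pass (adjusted p = 0.196) except after cyclic loess (adjusted p = 0.0491). The wild type call was lost under 6 of 16 alternatives, among them leaving out marrow array 1 (adjusted p = 0.177), marrow array 2 (0.0707), wild type array 2 (0.0631) or wild type array 3 (0.0715), and testing only rows above the median on at least 2 arrays (0.0527). The endothelial list means given with Notch4 had the same order as Dll4 in these groups as deposited. After cyclic loess those means overlapped between YFP-positive (3.68 to 3.76) and wild type cells (3.65 to 3.71). The YFP-negative array then had a higher endothelial mean, 3.90, but a lower Dll4 value, 4.07, than the other sorted arrays. The part of endothelial RNA in the Dll4 difference was not tested.

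The ligands Jag2 and Dll1 gave low values with no difference that passed. Jag2, a ligand made by many epithelia, was at 4.36, 4.08 and 4.62 in YFP-positive cells, 4.32, 4.20 and 3.96 in wild type cells, and 4.12 and 4.09 in marrow. The Jag2 groups overlapped throughout. Dll1, the ligand needed for marginal zone B cells, was at 3.66, 3.65 and 4.10 in YFP-positive cells, 3.51, 3.58 and 3.34 in wild type cells, and 3.41 and 3.57 in marrow. Every Dll1 value was below the median of all values. Against marrow, Jag2 differed by 0.25 for YFP-positive and 0.05 for wild type cells (adjusted p = 0.340 and 0.909), and Dll1 by 0.31 and -0.02 (adjusted p = 0.212 and 0.967).

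Both target genes were higher in stroma. Hes1, a repressor that is the standard readout of Notch activity but also answers to other signals, was at 9.23, 8.62 and 8.47 on the YFP-positive arrays, 8.78, 8.69 and 8.37 on the wild type arrays, and 6.43 and 6.50 in marrow. The sorted groups overlapped, and both marrow arrays were well below them. Hes1 was 4.97-fold higher in YFP-positive cells (2.31 ± 0.24, adjusted p = 0.000224) and 4.43-fold higher in wild type cells (2.15 ± 0.24, adjusted p = 0.000330) than in marrow. Hes1 passed under all 16 alternatives of each comparison.

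Hey1, a related repressor known in vessels and in bone-forming cells, varied more within the sorted groups. It was at 5.75, 7.60 and 6.84 on YFP-positive arrays 1, 2 and 3, at 7.74, 8.07 and 7.08 on the wild type arrays, and at 4.23 and 4.56 in marrow. YFP-positive array 1 was lowest of the sorted arrays but still above both marrow arrays. Hey1 was 5.05-fold higher in YFP-positive cells (2.34 ± 0.51, adjusted p = 0.0116) and 9.39-fold higher in wild type cells (3.23 ± 0.51, adjusted p = 0.00257) than in marrow. The wild type call held under all 16 alternatives. The YFP-positive call was lost without marrow array 1 (adjusted p = 0.0908) or without marrow array 2 (0.0536). Enpep, which encodes the sorted surface antigen BP1, was also lowest on YFP-positive array 1, at 5.91 against 7.73 and 6.66, where the neutrophil mean was highest. The part of these markers, or of the osteoblast lineage markers, in the Hey1 values was not tested.

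**Figure D2:**
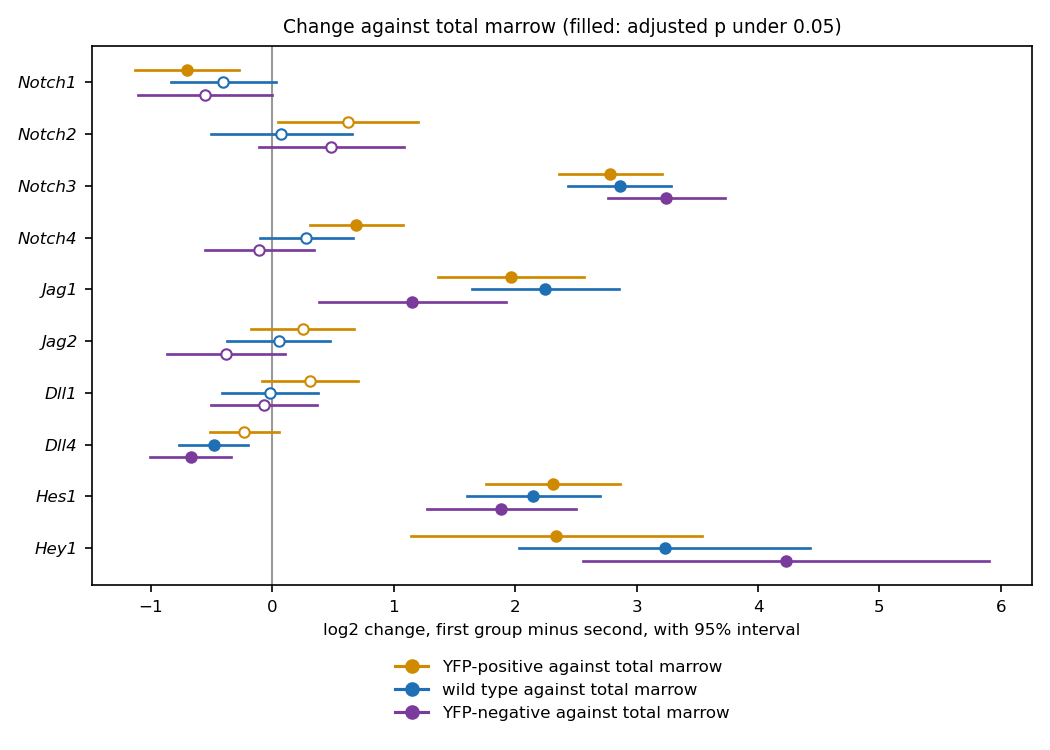
Log2 change of each member against total marrow, for YFP-positive and wild type cells with deposited values and for the single YFP-negative array after cyclic loess. Bars are 95% intervals and filled points have an adjusted p under 0.05. Notch3, Jag1, Hes1 and Hey1 are filled and lie right of 0 in every comparison. Notch1 is filled left of 0 in YFP-positive cells, and Dll4 left of 0 in wild type cells and on the YFP-negative array.

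Between YFP-positive and wild type stroma no member passed the test. The members called were 0 of 10, and 0.00% of all rows were called, with a smallest adjusted p of 0.0680 over the table. At an unadjusted p under 0.05, 2 of 10 members and 3250 of 21789 rows differed. As deposited, the groups did not overlap for Notch4, Dll1 and Dll4, which is 3 of 10 members beside 21.8% of all rows. After cyclic loess Dll1 overlapped, while Notch2 and Hes1 did not. The share of all rows on that scale was not computed. The members' median change was 0.18 and that of all rows 0.05.

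The intervals show how much difference each member leaves possible. For Notch3 the difference was -0.08 on the log2 scale with a 95% interval of -0.46 to 0.30, and for Hes1 0.16 with an interval of -0.33 to 0.65. Notch1 differed by -0.30 (-0.68 to 0.08), Jag1 by -0.28 (-0.82 to 0.26) and Jag2 by 0.20 (-0.18 to 0.58). Hey1 had the widest interval, with a difference of -0.89 (-1.97 to 0.18). Notch2 and Notch4 were the members with an interval above 0, at 0.55 (0.03 to 1.07, adjusted p = 0.324) and 0.41 (0.07 to 0.76, adjusted p = 0.300). Dll1 and Dll4 differed by 0.33 (-0.03 to 0.68) and 0.25 (-0.00 to 0.51).

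**Figure D3:**
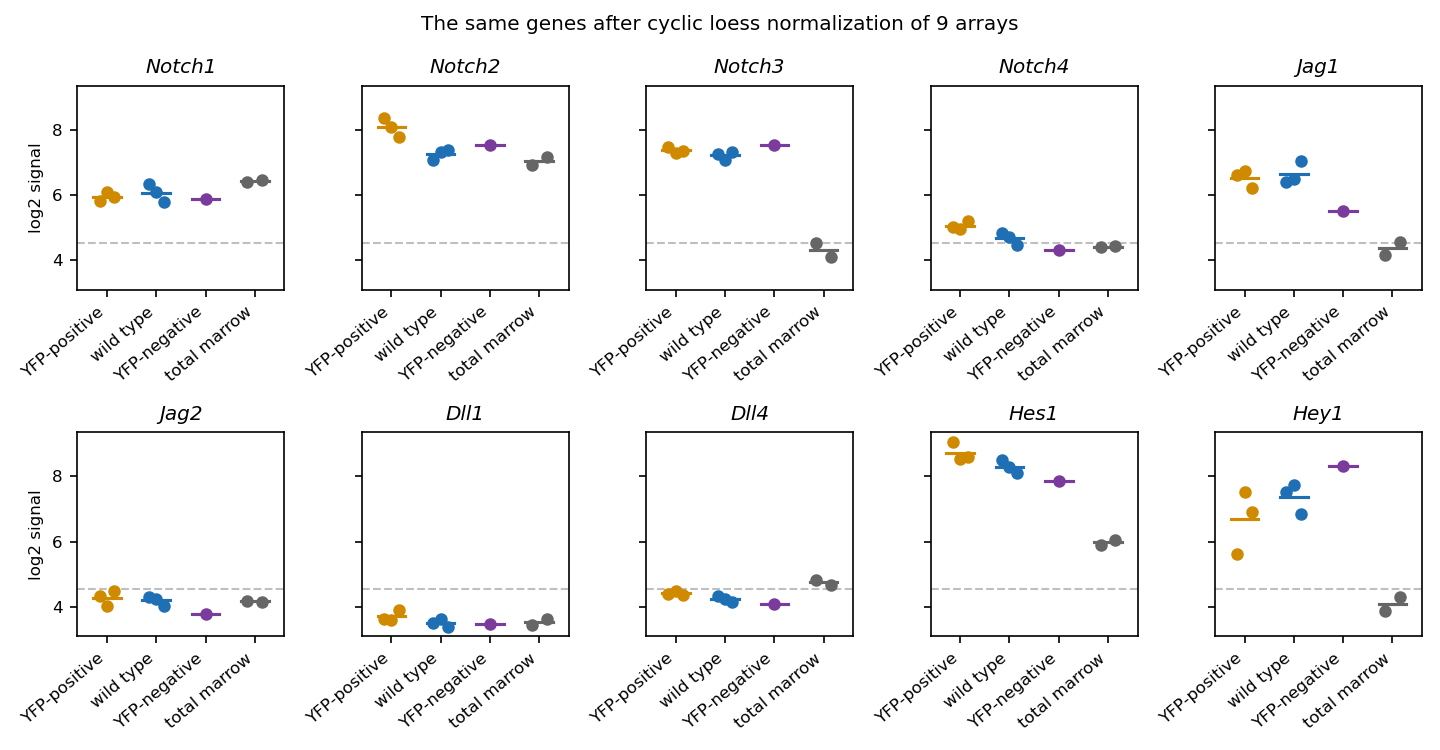
Log2 signal of the 10 members after cyclic loess normalization of all 9 arrays, with the YFP-negative array included; points are arrays, short bars are group means and the dashed line is the median of all normalized values, 4.53. The single YFP-negative array is just above the other sorted arrays for Notch3, below them for Jag1 and Hes1 and above them for Hey1.

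The YFP-negative fraction is 1 array, so its spread is borrowed from the other groups and array and fraction cannot be told apart. It is defined by the absence of YFP and not by low Il7 signal. Il7 was at 7.03 on this array after cyclic loess, beside 6.41 to 7.97 as deposited on the YFP-positive and wild type arrays. After cyclic loess, Notch3 was at 7.54 on the YFP-negative array (6.44 as deposited), beside 7.48, 7.28 and 7.36 in YFP-positive and 7.27, 7.09 and 7.33 in wild type cells. Hey1 was at 8.31 (7.17 as deposited), above 5.62, 7.51 and 6.92 in YFP-positive and 7.53, 7.73 and 6.84 in wild type cells. Jag1 was at 5.51 (4.29 as deposited), below 6.61, 6.73 and 6.23 in YFP-positive and 6.40, 6.48 and 7.04 in wild type cells. Hes1 was at 7.86 (6.96 as deposited), below 9.07, 8.54 and 8.60 in YFP-positive and 8.52, 8.28 and 8.10 in wild type cells. The YFP-negative array was thus outside both other sorted groups for these 4 genes, for Notch3 by a narrow margin. A single array can readily lie outside a few others, and the share of all rows that did so was not computed. The positions of the members on this array are therefore given as values only.

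Of the other 6 members, Notch4, Jag2 and Dll4 were also below all 6 other sorted arrays. Notch4 was at 4.31, beside 5.03, 4.95 and 5.20 in YFP-positive and 4.85, 4.71 and 4.46 in wild type cells. Jag2 was at 3.78, beside 4.34, 4.03 and 4.47, then 4.31, 4.23 and 4.02, and Dll4 at 4.07, beside 4.38, 4.47 and 4.36, then 4.32, 4.24 and 4.15. Notch2 was at 7.54 on the YFP-negative array, between 8.36, 8.10 and 7.78 in YFP-positive and 7.09, 7.33 and 7.39 in wild type cells. Notch1 was at 5.88, beside 5.82 to 6.08 and 5.77 to 6.35. Dll1 was at 3.46, beside 3.58 to 3.90 and 3.38 to 3.63. On the YFP-negative array Notch4, Jag2, Dll1 and Dll4 were all below the median of normalized values.

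None of these differences between sorted fractions passed the test. Against YFP-positive cells 0 of 10 members were called, where 3.98% of all rows were called. At an unadjusted p under 0.05 the counts were 6 of 10 members and 4773 of 21789 rows. The smallest adjusted p was that of Notch4, at -0.75 (95% interval -1.17 to -0.33, adjusted p = 0.0645), followed by Hes1 at -0.88 (-1.46 to -0.30, adjusted p = 0.0979) and Jag1 at -1.01 (-1.74 to -0.28, adjusted p = 0.117). Hey1 differed by 1.62 (0.05 to 3.20, adjusted p = 0.216) and Notch3 by 0.17 (-0.28 to 0.63). Against wild type cells 0 of 10 were called, where 4.56% of all rows were called. At an unadjusted p under 0.05 the counts were 1 of 10 members and 4865 of 21789 rows. The member was Jag1, at -1.13 (-1.86 to -0.40, adjusted p = 0.0878). Hes1 differed there by -0.44 (-1.02 to 0.14) and Hey1 by 0.94 (-0.64 to 2.51). The neutrophil mean after cyclic loess was 4.95 on the YFP-negative array, within the range of the other sorted arrays (3.92 to 7.03), and the reticular stroma mean was 10.6.

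**Figure D4:**
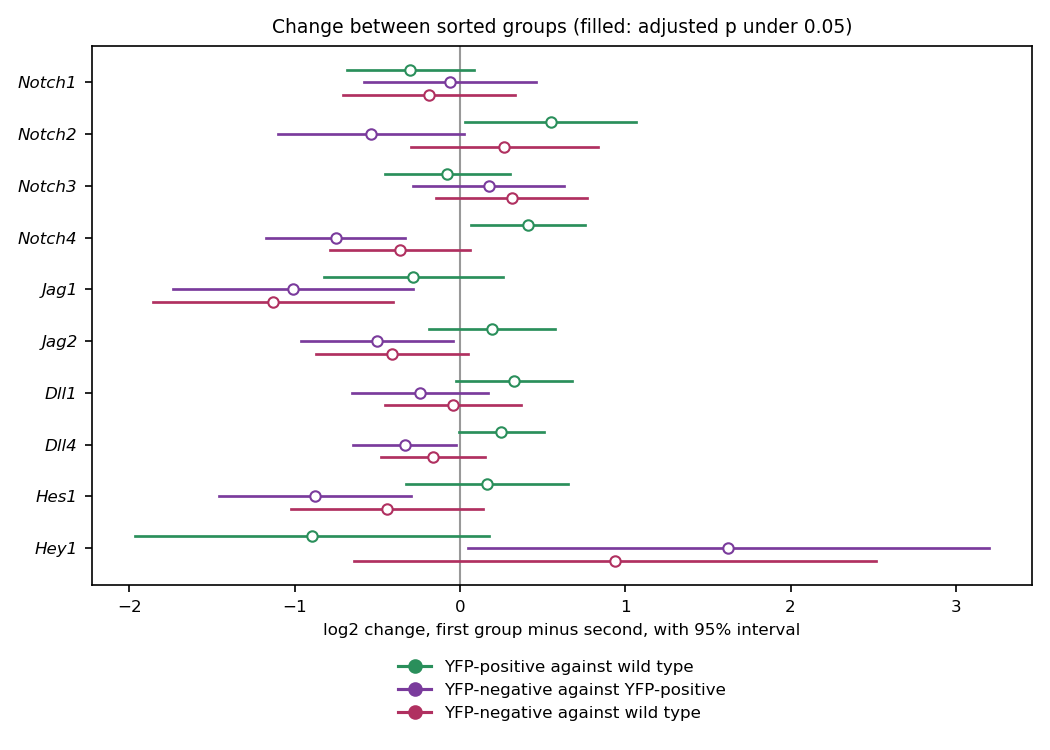
Log2 difference of each member between the sorted fractions, YFP-positive against wild type with deposited values and the YFP-negative array against each of them after cyclic loess; bars are 95% intervals and no point is filled, since no adjusted p was under 0.05. The intervals of Hey1 are the widest, and both intervals of Jag1 for the YFP-negative array lie left of 0.

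Against marrow the YFP-negative array had 4 members higher and 1 lower, where 13.0% of all rows were higher and 13.2% lower. Notch3 was 9.49-fold higher (3.25 ± 0.21, adjusted p = 2.90e-05), Hey1 18.8-fold higher (4.23 ± 0.71, adjusted p = 0.00422), Hes1 3.70-fold higher (1.89 ± 0.26, adjusted p = 0.00168) and Jag1 2.22-fold higher (1.15 ± 0.33, adjusted p = 0.0384). Dll4 was 1.60-fold lower (-0.67 ± 0.14, adjusted p = 0.0112). With deposited values, where all rows of that array sit lower by a median of 0.85, the Jag1 difference turned to -0.31 and that of Hes1 was 0.49 (adjusted p = 0.186). Jag1 was also lost without marrow array 1 (adjusted p = 0.156), without marrow array 2 (0.0579), without wild type array 2 (0.0591), without YFP-positive array 1 (0.0506), with median centring (0.118) and with all rows of the table tested (0.0791).

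The other genes of the pathway were read from lists by role, 48 of 50 genes having a row. Against marrow, YFP-positive cells had 9 of them higher and 8 lower, wild type cells 9 and 3, and the YFP-negative array 10 and 2. Over all rows the shares called higher and lower were 11.0% and 18.5%, 10.4% and 13.9%, and 13.0% and 13.2% in the same order. The median change of the 48 genes was 0.13 for YFP-positive and 0.05 for wild type cells, beside 0.09 and 0.00 over all rows. Between YFP-positive and wild type cells none of the 48 passed, and 8 had an unadjusted p under 0.05, beside 3250 of 21789 rows.

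Among 10 other targets and Hes family members, Heyl, a Hey-related repressor, had the largest change. Heyl was at 8.16, 7.69 and 8.02 in YFP-positive cells, 9.14, 8.74 and 8.64 in wild type cells, and 4.52 and 4.20 in marrow. All sorted arrays were far above marrow, and the wild type arrays were all above the YFP-positive ones. The change against marrow was 3.60 ± 0.21 in YFP-positive cells (adjusted p = 8.87e-06) and 4.48 ± 0.21 in wild type cells (adjusted p = 2.49e-06), and between these groups -0.88 (95% interval -1.32 to -0.44, adjusted p = 0.177). Hes6, which antagonises Hes1, was lower than in marrow by -0.88 and -0.71 (adjusted p = 0.0139 and 0.0391). The other 8 genes of the list did not pass in either comparison.

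In the nuclear complex, 2 of 8 measured genes were higher in both comparisons. Rbpj, the DNA-binding partner of the Notch intracellular domain, was at 9.03, 8.33 and 8.29 in YFP-positive cells, 8.21, 8.42 and 8.52 in wild type cells, and 7.13 and 6.90 in marrow. Its changes were 1.54 ± 0.24 (adjusted p = 0.00208) and 1.37 ± 0.24 (adjusted p = 0.00393). Maml2, a Mastermind co-activator, was higher by 1.17 and 1.18 (adjusted p = 0.0156 and 0.0166). Ep300, a histone acetyltransferase, was lower in YFP-positive cells by -1.26 (adjusted p = 0.0286).

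Of 10 genes for sugar transfer to receptors, ligand ubiquitination and processing, 3 were higher and 1 lower in each comparison. Poglut1, which adds O-glucose to Notch repeats, was higher by 1.47 ± 0.19 in both (adjusted p = 0.000742 and 0.000767), and Furin, which cuts the receptor precursor, by 0.87 and 0.79 (adjusted p = 0.0127 and 0.0221). Mfng, a Fringe sugar transferase, was at 4.05, 4.07 and 4.20 in YFP-positive cells, 3.63, 3.75 and 3.96 in wild type cells, and 5.51 and 5.15 in marrow. It was lower by -1.22 and -1.55 (adjusted p = 0.000751 and 0.000198). Neurl1a, a ligand ubiquitin ligase, was higher in YFP-positive cells by 0.46 (adjusted p = 0.0411), and Rfng, a Fringe paralogue, in wild type cells by 0.86 (adjusted p = 0.0358). Its paralogue Lfng spread widely among sorted arrays (9.48, 7.48 and 7.64, then 9.25, 9.19 and 8.25, with 7.16 and 7.08 in marrow) and did not pass.

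Among the 7 measured cleavage genes, the gamma-secretase subunit Ncstn was higher by 0.64 for YFP-positive and 1.00 for wild type cells (adjusted p = 0.0332 and 0.00500). Psen2 and Psenen, subunits of the same enzyme, were lower in YFP-positive cells by -0.91 and -0.80 (adjusted p = 0.00510 and 0.0469). Of 8 turnover genes and inhibitors, Dtx4, a Deltex ubiquitin ligase, was higher by 2.25 and 2.02 (adjusted p = 0.00658 and 0.0116). Fbxw7, which targets the intracellular domain for degradation, and Numb, an inhibitor of Notch, were lower in YFP-positive cells by -1.58 and -1.13 (adjusted p = 0.0252 and 0.0360), and Dtx3 was higher in wild type cells by 1.46 (adjusted p = 0.0227). Of 5 further ligands and ligand-like genes, Egfl7 was lower by -0.52 and -0.65 (adjusted p = 0.0433 and 0.0198) and Dlk2 higher in YFP-positive cells by 0.50 (adjusted p = 0.0339). Both were near the median of all values: group means were 4.25, 4.12 and 4.77 for Egfl7 and 4.70, 4.35 and 4.20 for Dlk2 in YFP-positive cells, wild type cells and marrow.

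**Figure D5:**
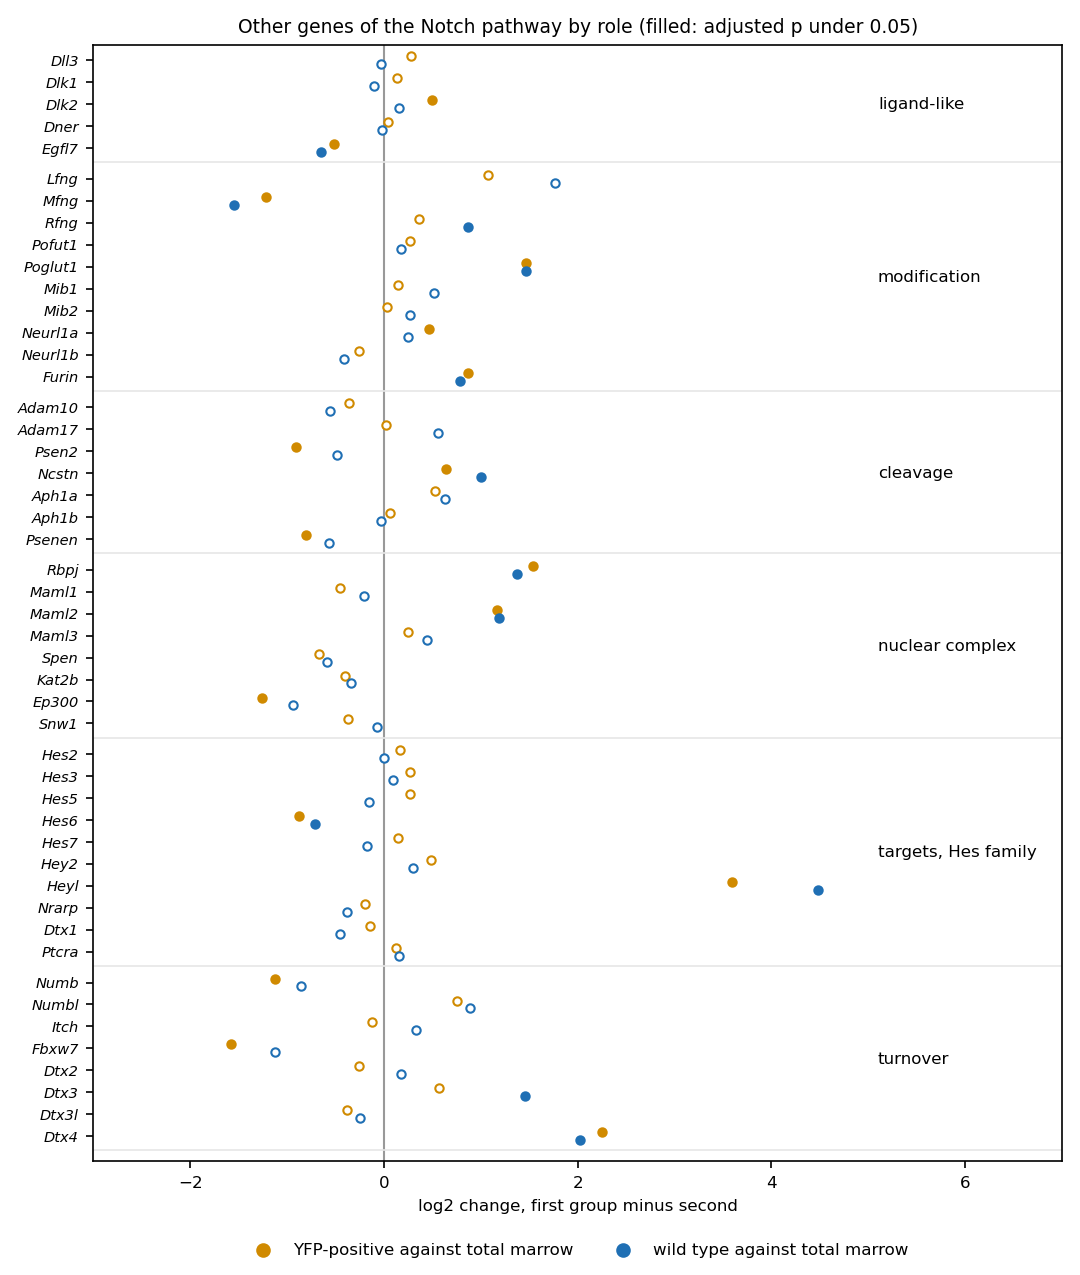
Log2 change of the other genes of the Notch pathway against total marrow, grouped by role; filled points have an adjusted p under 0.05. Heyl lies farthest to the right, at 3.60 (YFP-positive) and 4.48 (wild type), and Mfng is filled left of 0 in both.

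Among the sorted fractions, the pathway lists gave 1 call. Against YFP-positive cells the YFP-negative array had 0 of 48 genes past the test, beside 3.98% of all rows, with a smallest adjusted p of 0.0517. At an unadjusted p under 0.05 there were 14 of 48 genes and 4773 of 21789 rows. Against wild type cells Kat2b, an acetyltransferase that works with the Notch complex, was higher on the YFP-negative array after cyclic loess. It was at 6.37 (5.11 as deposited) against 5.13, 5.54 and 5.11 on the wild type arrays (1.11, 95% interval 0.56 to 1.67, adjusted p = 0.0472 from limma). That call was lost without any one of YFP-positive array 2, wild type arrays 1 and 2 and the marrow arrays, each of which left 0 of the pathway genes called. Against marrow, Heyl (4.11), Dtx4 (2.37), Maml2 (2.01), Rbpj (1.44) and Poglut1 (1.04) were again higher on the YFP-negative array and Mfng lower (-1.24). Hey2, Pofut1, Itch, Snw1 and Ptcra were higher there by 1.57, 1.34, 1.01, 0.84 and 0.61 and Nrarp lower by -0.54, of which Hey2 and Nrarp were below the median of all values in both groups.

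The members differed in how far their values spread over the 8 arrays without the YFP-negative one. The range was 3.83 log2 units for Hey1, 3.25 for Notch3, 2.80 for Hes1, 2.79 for Jag1 and 1.18 for Notch2, and 0.67 to 0.88 for the other 5. The genes with the most similar pattern to Notch3 over these 8 arrays were Slit3, Plpp3 and Lgals3bp (Pearson r 0.998 each). Those for Jag1 were Poglut3, Dcbld2 and Emilin1 (0.994, 0.993 and 0.990), those for Hes1 were Mgp, Sulf1 and Lgr4 (0.995, 0.995 and 0.994), and those for Hey1 were Cuedc1, Nfatc4 and Ptn (0.991, 0.983 and 0.981). For Notch2 they were Gm10548, Palm3 and Mir181b-2 (0.961, 0.954 and 0.934). These values describe 8 arrays in 3 groups, with the marrow arrays at one end for Notch3, Jag1, Hes1 and Hey1.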

How the data were processed

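Total RNA was amplified and hybridised to 9 Affymetrix Mouse Gene ST 1.0 arrays. The deposited values are log2 signals that the authors made with Affymetrix Expression Console 1.3.1 and RMA, per the submitters' processing notes. A log2 change can understate the change of genes near the background, and the small number of arrays limits precision. No detection call was used here.

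The 10 members, the pathway lists and the markers were chosen with earlier results of these data known. Rows with exactly 1 gene symbol (21789) were fitted together in limma 3.58.1 under R 4.3.3, with 1 mean per group, moderated errors and Benjamini-Hochberg adjustment over all rows (adjusted p under 0.05). Residual degrees of freedom were 5. Comparisons without the YFP-negative array used the deposited values. Those with it used cyclic loess of the 9 arrays. All members are named. Of each pathway list, up to 3 called genes with the largest change per comparison are named, with Lfng added after its values were seen. Of a gene with several rows, the row with the highest mean was used. Among the pathway genes, Neurl1b, Aph1a, Psenen, Rbpj, Maml2 and Fbxw7 had 2 rows each, and the other row is not given here. Likeness was computed for members that span over 1 log2 unit. Scripts were tested on simulated data. Alternatives changed the normalization, the rows, the prior, the weights, the samples fitted and the replicate block, and left out each array in turn. Replicate numbers did not pair the arrays (correlations of same-numbered YFP-positive and wild type deviations -0.058, -0.025 and -0.0067).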

Additional observations from a re-analysis of the deposited data

Results flagged for a closer look

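Kat2b was the only gene of the members and pathway lists that passed the test between sorted fractions, which is why it is listed here. On the log2 scale it was 1.11 higher on the YFP-negative array than on the wild type arrays after cyclic loess (adjusted p = 0.0472 from limma). Against YFP-positive cells the difference was 1.06 (adjusted p = 0.0559), and against total marrow 0.78 (adjusted p = 0.0589). The comparison rests on 1 YFP-negative array. As deposited, where that array sits on a lower scale, Kat2b was at 5.11 on it, below 5.26, 5.74 and 5.22 on the wild type arrays. The call was lost when only rows above the median on at least 2 arrays, all rows of the table or only the groups compared were fitted, and with the replicate block. It was also lost without YFP-positive array 2, wild type array 1, wild type array 2 or either marrow array.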

How the results depend on the processing

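Against total marrow, Notch3, Jag1 and Hes1 in both groups and Hey1 in wild type cells passed under every one of the 16 alternatives run. Members called in YFP-positive cells against marrow numbered 6, with the fewest left when either marrow array was left out. Those fits leave 1 marrow array. The calls over all 21789 rows also fell there in each comparison with marrow, so the drop is not particular to the members. In wild type cells the members called numbered 5, and 4 to 5 with 1 wild type array left out. On the YFP-negative array against marrow they numbered 5, 4 to 5 with 1 array left out, and 8 with deposited values. Against YFP-positive or wild type cells the YFP-negative array had 0 members called, 9 with deposited values in each comparison, 1 with median centring in each, and 1 with quantile normalization against YFP-positive cells. Between YFP-positive and wild type cells 0 members and 0 other pathway genes were called under every alternative. The deposited scale shifts all rows of the YFP-negative array by a median of -0.91 against YFP-positive cells, -0.88 against wild type cells and -0.85 against marrow. On that scale 16522, 16353 and 15666 of 21789 rows were called in the same order. The member and pathway gene counts there are therefore not particular to these genes. Median centring called 2512 and 4458 rows against YFP-positive and wild type cells, and quantile normalization 1683 and 1720. With only the groups compared, 8885 rows were called on the YFP-negative array against marrow and 6626 in wild type cells. Array weights gave 7387 and 7022.

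Other pathway genes called in YFP-positive cells against marrow numbered 17, with 10 when only the groups compared were fitted, 10 with the replicate block and 5 to 16 with 1 array left out. In wild type cells they numbered 12, with 22 under array weights, 20 with only the groups compared and 5 to 19 with 1 array left out. The lowest counts in both came without a marrow array. Those fits leave 1 marrow array, and the calls over all rows fell there as well. The lower counts are therefore not read as a property of these genes. On the YFP-negative array against marrow they numbered 12, with 34 on the deposited scale, 19 under array weights, 22 with only the groups compared and 5 to 14 with 1 array left out. Against YFP-positive cells they numbered 0, with 35 on the deposited scale, 3 with median centring, 4 with quantile normalization, 1 with a trended and robust prior, 2 under array weights and 0 to 1 with 1 array left out. Against wild type cells the count was 1, with 36, 9 and 4 under the deposited scale, median centring and quantile normalization, 6 under array weights, and 0 with only rows above the median, all rows of the table, only the groups compared or the replicate block, and 0 to 2 with 1 array left out.

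The replicate block ended 2 member calls, Notch4 in YFP-positive cells (adjusted p = 0.0521) and Dll4 in wild type cells (0.0836), and Jag1 on the YFP-negative array against marrow (0.0766). The numbers only name the arrays.

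The following values turned sign. On the deposited scale of the YFP-negative array Notch3 was -0.98 against YFP-positive and -1.06 against wild type cells, Notch2 -0.99 against wild type cells and -0.91 against marrow, Hey1 -0.45 against wild type cells and Jag1 -0.31 against marrow. Between YFP-positive and wild type cells, Notch3 was 0.14 with cyclic loess, 0.17 with quantile normalization and -0.18 to 0.00050 with 1 array left out (above 0 without YFP-positive array 3), and Hes1 -0.063 to 0.31 with 1 array left out (below 0 without YFP-positive array 1). In wild type cells against marrow, Dll1 was 0.0027 with quantile normalization. With 1 array left out, Dll1 was -0.098 to 0.060 there (above 0 without wild type array 3, at 0.048, or marrow array 2), Jag2 -0.030 to 0.15 (below 0 without wild type array 1) and Notch2 -0.0043 to 0.19 (below 0 without wild type array 2). On the YFP-negative array, Notch3 was -0.017 against YFP-positive cells with quantile normalization, and Notch1 -0.13 to 0.0049 with 1 array left out (above 0 without YFP-positive array 2). Dll1 was 0.29 with median centring against wild type cells and against marrow, and 0.019 with the replicate block against wild type cells. With 1 array left out it was -0.093 to 0.021 against wild type cells (above 0 without wild type array 2) and -0.14 to 0.011 against marrow (above 0 without marrow array 2). The cause of these shifts was not tested.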

Other observations

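A further 6 rows of the table name Notch4 together with Sympk, a scaffold protein of messenger RNA processing, and were left out of the members because they cannot be given to 1 gene. With all rows of the table fitted, all 6 were lower than in total marrow, by -0.58 to -0.80 in YFP-positive cells (highest adjusted p = 0.0434) and by -0.76 to -1.02 in wild type cells (highest adjusted p = 0.0179, limma). Their group means were 2.78 to 4.17, below the median of all values. The row that names Notch4 alone had a positive difference in both comparisons, and the 2 readings were not reconciled here.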
